A study of Mus musculus with 18 samples.

Results

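Inflammatory pain in control mice was described from the dorsal spinal cord of C57BL/6 mice (C57BL/6N in the study's methods) aged 3 months that expressed LacZ, a bacterial enzyme used as an inert control protein. All of these mice had received recombinant adeno-associated virus (rAAV-LacZ) by intraspinal injection, on both sides of the dorsal horn, before the paw was injected. In the study's vector scheme a CMV promoter, which is not restricted to neurons, drives LacZ, while a synapsin promoter, which favours neurons, drives the HDAC4 constructs named below. Hindpaws received either Complete Freund's adjuvant (CFA), a suspension of killed mycobacteria in oil that causes lasting inflammation and hypersensitivity, or saline, and tissue of lumbar segments L3 to L5 was taken 24 h later. Each of these groups held 3 mice. The study made the same comparison with rAAV-HDAC4 wt, which carries wild-type histone deacetylase 4, and with rAAV-HDAC4 3SA, a mutant that stays in the nucleus. It covered 18 mice in 6 groups and measured poly-A RNA by sequencing.

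The LacZ table lists 34579 loci, with a single level per treatment, each estimated over the 3 mice. Levels are in FPKM, fragments per kilobase of transcript scaled to the mapped fragments of a library, so they are corrected for length and can be set side by side between genes. A locus was kept where it named a single gene, where the status was OK or NOTEST and where the mean of both levels was at least 1 FPKM. This left 15800 loci with 13771 gene names. At the limit, Kif6 entered with levels of 1.01 and 0.988 FPKM and Mamdc2 stayed out with a mean of 0.9997 FPKM. The change of a locus is log2 of the CFA level over the saline level after 0.1 FPKM was added to each. With 1 value per group no test, SD or interval could be computed for any gene, and every difference below is between 1 estimate over saline mice and 1 estimate over CFA mice. A locus is called past the fold where its log2 change lies beyond 0.5 in either direction. The study used the same fold together with a limit on adjusted p-values, which was not applied here. Values per mouse and the depth of each library are not part of the table, and the methods give only a minimum depth, so the precision of a single level is unknown.

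The dorsal horn is the first relay for signals from skin, joint and viscera. Its superficial layers hold excitatory and inhibitory interneurons that use glutamate, GABA, glycine and many peptides, among them the opioids dynorphin and enkephalin and the tachykinins. Peripheral inflammation is known to change spinal peptide transcripts, to activate glia and to send cytokine signals through the blood, which endothelial cells answer with acute-phase and interferon-induced genes. Neutrophils are short-lived blood leukocytes that store antimicrobial proteins in granules. The tissue carried the transcripts of its expected neurons. Gad1, which makes GABA, was at 104 FPKM with saline and at 99.6 FPKM with CFA. Slc32a1, the vesicular transporter for GABA and glycine, was at 76.0 and 75.4 FPKM. The Y-linked gene Ddx3y was at 25.1 and 24.2 FPKM.

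More loci were higher than lower after CFA, and the excess grew once loci that are hard to measure were set aside. Past the fold, 511 loci (3.23%) were higher and 382 (2.42%) were lower. Beyond a log2 change of 1, 122 loci (0.772%) were higher and 110 (0.696%) lower. The median change of all loci was 0.004. Many of the calls came from loci that share their name or are very short. A name that stands at several loci accounted for 36.7% of all loci, 44.4% of those higher and 58.9% of those lower. Loci spanning fewer than 500 bases made up 4.18% of all loci, 19.8% of those higher and 33.5% of those lower. At the same place on chromosome X (20855539 to 20857599), the kinase gene Araf had a locus that went from 6.56 to 1.76 FPKM and another that went from 1.81 to 6.55 FPKM. Of 1537 such sets of loci with the same name and coordinates, 6 held calls in both directions.

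For names at a single locus of at least 500 bases, 9541 loci in all, 211 (2.21%) were higher and 62 (0.65%) lower. Beyond a log2 change of 1 these counts were 40 (0.419%) and 16 (0.168%). They are called single-locus genes below. Calls of single-locus genes were most frequent at low levels. Between 1 and 2 FPKM, 7.62% of 1037 single-locus genes were higher and 2.22% lower. Between 20 and 100 FPKM, 0.686% of 2333 were higher and 0.214% lower. From 100 FPKM, 1.08% of 370 were higher and 0.811% lower. Among all loci, short and repeated names included, lower calls made up 5.55% from 100 FPKM and 5.32% between 1 and 2 FPKM. Of the 211 higher single-locus genes 177 code for protein, and of the 62 lower ones 30 do. A yardstick is the difference between groups that had the same treatment and a different vector. Between the LacZ and the HDAC4 wt saline groups 14.8% of single-locus genes lay past the fold in either direction, and between LacZ and HDAC4 3SA 9.85% did. Between HDAC4 wt and HDAC4 3SA, 2.59% did. The tables of the vectors were normalized separately, so those shares hold any difference of scaling as well.

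**Figure D1:**
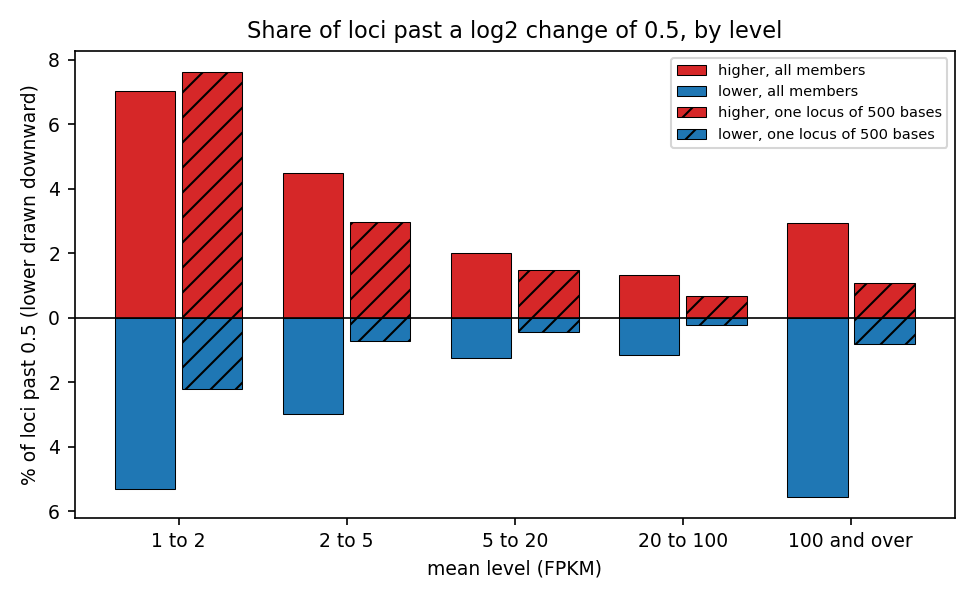
Share of loci past a log2 change of 0.5 (y axis, percent, higher drawn upward and lower drawn downward) by mean level (x axis, FPKM), for all loci and for single-locus genes of at least 500 bases. At 1 to 2 FPKM 7.62% of single-locus genes were higher and 2.22% lower, and at 20 to 100 FPKM 0.686% and 0.214%.

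The genes below are described through 50 lists of pathways and cell types, of which 49 had members. Of the 211 higher single-locus genes 89 (42.2%) stand in a list, and of the 62 lower ones 10 (16.1%) do. Of all 13771 names kept, those at short or several loci included, 1118 stand in a list. In 15 lists no locus lay past the fold. Counts within a list are to be read against the 3.23% of all loci that were higher past the fold and the 2.42% that were lower. A count of loci higher by any amount is to be read against the 51.3% of all loci with a change above 0. Of the 511 higher loci 116 were below 1 FPKM after saline, and of the 382 lower loci 85 were below 1 FPKM after CFA. Such loci reached the level filter only through the group where they were high, so their direction was fixed by it, and list counts and medians are descriptions. Bulk tissue gives the sum over all cells, so more cells of a type and more RNA per cell cannot be told apart anywhere in these results.

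**Figure D2:**
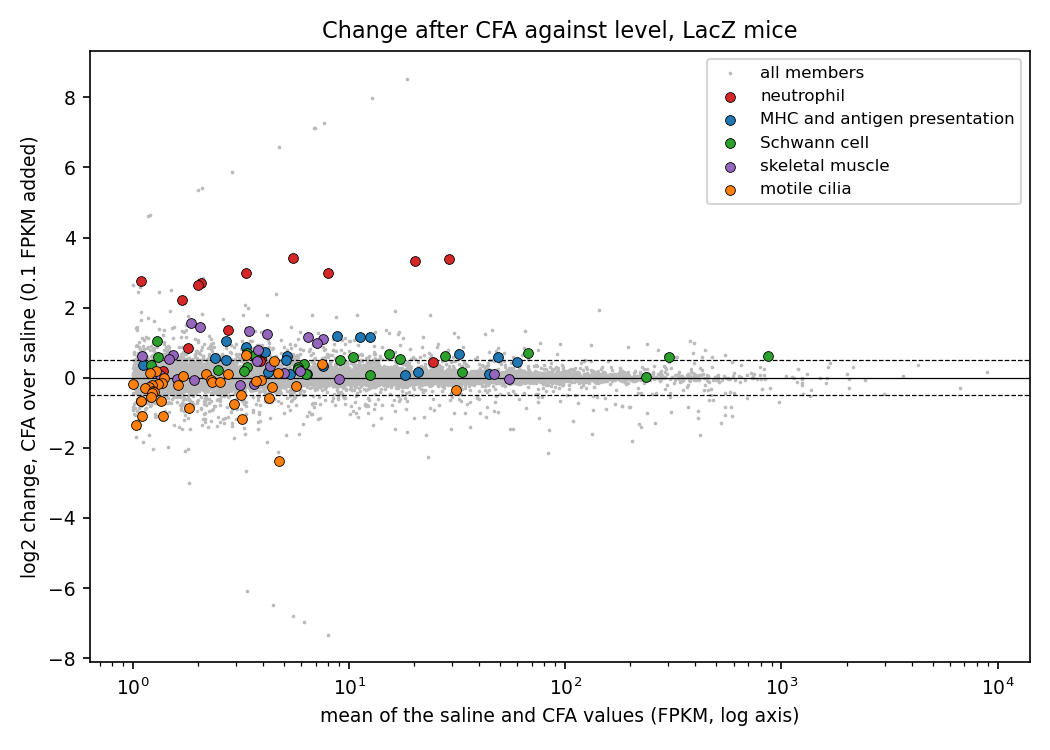
Log2 change after CFA (y axis, 0.1 FPKM added) against the mean of the saline and CFA levels (x axis, FPKM, log axis) in LacZ mice, 1 point per locus, with 5 gene lists in colour and dashed lines at 0.5 and -0.5. Of the coloured lists, neutrophil loci have the highest median and 12 of 15 lie above the upper line, as do 12 of 22 MHC, 11 of 23 Schwann cell and 11 of 23 muscle loci, and motile cilia genes lie mostly below 0.

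Genes of neutrophil granules and alarmins, proteins that neutrophils store or release at sites of infection, had the highest median of all lists. All 15 loci were higher after CFA and 12 (80% of the list, against 3.23% of all loci) were past the fold, with a median log2 change of 2.65. With 1 FPKM added the median was 1.33, and with no minimum level it was 1.82. The summed level of the list went from 44.5 to 177 FPKM. Camp, the cathelicidin of specific granules, went from 0.671 to 5.97 FPKM, a log2 change of 2.98. Ltf, lactoferrin, which binds iron, went from 0.472 to 3.65 FPKM, and Retnlg, a resistin-like protein of myeloid cells, from 0.529 to 2.84 FPKM. Anxa1, annexin A1, which limits leukocyte recruitment, went from 1.49 to 4.00 FPKM, and the serine protease gene Prtn3 from 1.24 to 2.34 FPKM. Of the 12 loci past the fold, 6 were below 1 FPKM after saline and reached the mean of 1 FPKM only through the CFA group, so the filter fixed their direction and the count of 12 is a description only. Defining neutrophil markers stayed below 1 FPKM. Ly6g went from 0.086 to 0.374 FPKM, Cd177 from 0.0347 to 0.805 FPKM, and Elane, neutrophil elastase, from 0.0852 to 0.654 FPKM. Of 17 list loci below 1 FPKM 13 were higher, a count given without the share over all loci of that level. Lyz2, a lysozyme gene that macrophages express as well, went from 20.6 to 28.1 FPKM.

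In the red blood cell list 2 of 7 loci were past the fold, and the median was 0.10. Hbb-bs, a beta-globin gene, went from 137 to 252 FPKM and Alas2, which starts heme synthesis in red cell precursors, from 4.43 to 7.76 FPKM. The summed level of the 7 loci went from 336 to 459 FPKM, mostly through Hbb-bs. Slc4a1, the red cell anion exchanger, went from 0.150 to 1.01 FPKM. How much of the neutrophil difference goes with blood left in the tissue was not tested. Lymphocyte lists had too few loci to read a share from. None of the 4 T cell loci, among them Thy1, which neurons express, and none of the 6 B cell loci was past the fold. Cd3e, part of the T cell receptor complex, went from 0.0534 to 0.155 FPKM.

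Acute-phase genes, which cytokines induce in liver, endothelium and glia, were higher as a group. All 10 loci were higher, 4 of them (40%, against 3.23% of all loci) past the fold, and the median log2 change was 0.40. Lrg1, a secreted leucine-rich glycoprotein made by endothelium, went from 1.20 to 5.40 FPKM. Cp, ceruloplasmin, which oxidises iron, went from 9.62 to 14.3 FPKM. Socs3, a feedback inhibitor of cytokine receptors that signal through STAT3, went from 1.14 to 1.91 FPKM. Among glucocorticoid and stress hormone response genes 4 of 34 loci (11.8%) were past the fold and 26 were higher, with a median of 0.16. The transcription factor genes Cebpd and Cebpb went from 2.04 to 3.84 and from 4.39 to 6.29 FPKM. Tgm2, a protein-crosslinking transglutaminase, went from 7.31 to 11.1 FPKM.

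The endothelial list was past the fold at 2 of 22 loci (9.09%, against 3.23% of all loci), and its median was 0.09. Icam1, the adhesion receptor that leukocytes hold on to, was 1 of these 2 and went from 1.24 to 1.90 FPKM. Thbd, thrombomodulin, which turns thrombin into an anticoagulant, is not in that list and went from 3.15 to 5.59 FPKM. Prostaglandin genes had 4 of 23 loci (17.4%) past the fold. Ptgds, the prostaglandin D synthase that is also abundant in meninges, went from 246 to 508 FPKM and gave most of the summed level of that list, which went from 440 to 707 FPKM. Ptgis, prostacyclin synthase, went from 1.05 to 1.71 FPKM, and Tbxa2r, the thromboxane receptor, from 1.19 to 1.79 FPKM. Ptgs2, cyclooxygenase 2, lay below the level filter at 0.456 and 0.774 FPKM.

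Antigen presentation genes were higher throughout. MHC class II molecules show peptides to helper T cells on microglia, macrophages and other presenting cells, and class I molecules show peptides on almost every cell. All 22 loci of the list were higher and 12 (54.5%, against 3.23% of all loci) were past the fold, with a median of 0.54. Cd74, the invariant chain of class II, was counted in the list of activated microglia genes (chromosome 18, 60803800 to 60812658) and went from 17.8 to 43.5 FPKM, a log2 change of 1.29. The class II chain genes H2-Aa, H2-Eb1 and H2-Ab1 had nearly the same change. H2-Aa went from 7.65 to 17.4 FPKM, H2-Eb1 from 5.33 to 12.2 FPKM and H2-Ab1 from 6.87 to 15.6 FPKM. Class I genes changed less. H2-K1 went from 24.8 to 39.4 FPKM and H2-D1 from 39.2 to 58.9 FPKM, log2 changes of 0.67 and 0.59. B2m, the light chain of class I, went from 50.1 to 69.0 FPKM and stayed inside the fold at 0.46. The immunoproteasome subunits Psmb8 and Psmb9 went from 4.04 to 6.22 and from 1.91 to 2.86 FPKM. Class I and class II genes have close relatives, so short reads may have been divided between them.

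Interferon response genes had 12 of 46 loci (26.1%, against 3.23% of all loci) higher and past the fold, 42 higher in all, and a median of 0.21. Of these 12, 4 were below 1 FPKM after saline. Bst2, tetherin, which holds budding virus at the cell surface, went from 2.83 to 5.71 FPKM. Gbp2, a guanylate-binding protein gene, went from 2.32 to 4.22 FPKM. Its relative Gbp3 has a pair of loci, of which the untested one (NOTEST) went from 4.64 to 8.94 FPKM and the other from 2.13 to 2.83 FPKM, inside the fold. Ifitm1, a membrane protein that blocks viral entry, went from 4.95 to 9.59 FPKM. Irf7, a transcription factor of the type I interferon response, went from 1.31 to 1.99 FPKM, and Ifit3 from 2.97 to 4.30 FPKM. Xaf1 went the other way, from 2.35 to 1.41 FPKM, at a name with several loci.

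Promoters were searched for the letters that known regulators of interferon and class II genes read. Sequences 250 bases before the RefSeq start (GRCm38.p6) were matched for 9903 of the 13771 gene names, and 32851 windows were searched on both strands. The interferon response element core GAAANNGAA stood in 7.13% of all windows, in 17 of 47 windows of the interferon list (36.2%) and in 5 of 13 windows of its members past the fold (38.5%). A STAT site, TTCNNNGAA, stood in 7.02% of all windows. The CRE letters TGACGTCA stood in 1.55% and the kB letters GGGANTTCC in 1.43%. A STAT match and an interferon core can share bases. The 3 promoters below are shown because Bst2 and Ifit3 hold several copies of the interferon core and H2-Aa holds the CRE letters that form part of class II promoters. Bases inside the gene's own locus in the table were left out, which removed 114 bases for Bst2 and 4 for H2-Aa. Capitals mark the matches. They lie on chr8:71537587-71537722 (minus strand), chr19:34583279-34583528 (plus strand) and chr17:34287828-34288073 (minus strand).
Bst2: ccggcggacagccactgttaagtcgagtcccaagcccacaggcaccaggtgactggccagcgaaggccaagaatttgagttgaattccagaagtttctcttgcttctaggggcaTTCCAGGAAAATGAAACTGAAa
Ifit3: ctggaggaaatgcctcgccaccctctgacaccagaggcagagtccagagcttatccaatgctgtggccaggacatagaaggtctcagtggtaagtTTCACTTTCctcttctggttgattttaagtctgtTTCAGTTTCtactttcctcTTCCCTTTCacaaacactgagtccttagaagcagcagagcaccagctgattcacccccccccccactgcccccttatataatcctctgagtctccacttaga
H2-Aa: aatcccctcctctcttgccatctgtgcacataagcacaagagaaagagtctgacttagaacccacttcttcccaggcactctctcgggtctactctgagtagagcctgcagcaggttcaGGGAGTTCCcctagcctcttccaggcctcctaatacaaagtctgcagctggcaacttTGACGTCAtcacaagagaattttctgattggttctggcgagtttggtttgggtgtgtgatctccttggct

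In Bst2 the capitals hold a STAT match from -136 to -128 and interferon cores from -130 to -122 and from -124 to -116, counted from the start, and these overlap. In Ifit3 the cores stand on the other strand at -155 to -147, -121 to -113 and -102 to -94. H2-Aa holds the kB letters at -131 to -123 and the CRE letters at -74 to -67. Gbp2 has a core at -58 to -50 and Ifitm2 at -46 to -38. Such a match is a run of letters and was not measured as a bound site. None of the 13 windows of MHC genes past the fold held the interferon core, but so few windows cannot be told apart from the share over all windows.

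**Figure D3:**
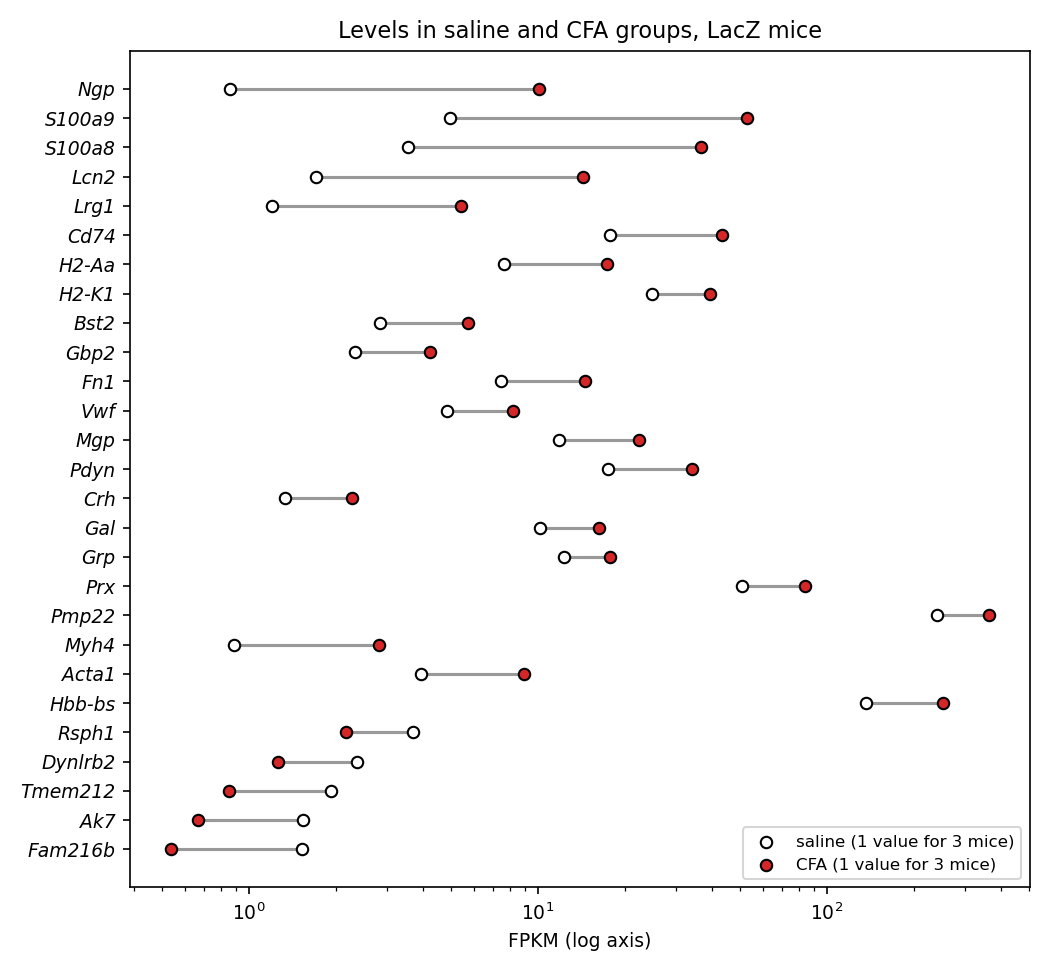
Levels in FPKM (x axis, log axis) of 27 named single-locus genes in LacZ mice, open circles for the saline group and red circles for the CFA group, each a single value for 3 mice. Neutrophil genes are separated by the longest lines, Pdyn lies at 17.4 and 34.3 FPKM, and the cilia genes at the foot have the CFA circle on the left.

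The cytokine, complement and microglia lists had lower medians than the interferon list. Of 33 chemokine and cytokine loci 4 (12.1%, against 3.23% of all loci) were past the fold and 26 were higher. Ccl12, a ligand that attracts monocytes, went from 0.957 to 2.49 FPKM and reached the level filter only through the CFA group. Il1r1, the signalling receptor of interleukin 1, went from 1.22 to 2.37 FPKM, and Osmr, the oncostatin M receptor, from 1.07 to 1.63 FPKM. None of the 18 complement loci was past the fold, and 14 were higher. Homeostatic microglia genes had 21 of 26 loci higher, 1 higher and 1 lower past the fold and a median of 0.11, and their summed level was 658 and 702 FPKM. Tmem119 went from 7.97 to 8.71 FPKM, P2ry12 from 11.1 to 9.30 FPKM and Csf1r from 23.1 to 23.7 FPKM. The calls were Ptprc, the leukocyte antigen CD45, from 2.44 to 4.43 FPKM, and Sall1, a transcription factor gene of microglia, from 2.03 to 1.39 FPKM, both at names with several loci. Activated microglia and macrophage genes had 21 of 23 loci higher and a median of 0.17, with 1 locus higher and 1 lower past the fold (4.35% each). The higher one was Cd74 and the lower one Cd63, which marks late endosomes of many cells, from 3.58 to 1.32 FPKM.

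Astrocyte identity genes had no locus past the fold among 27, and their median was -0.02. Gfap, the filament of reactive astrocytes, went from 389 to 415 FPKM. The list of reactive astrocyte genes had 8 of 30 loci (26.7%) higher and 1 lower past the fold, 2 of the 8 below 1 FPKM after saline, with a median of 0.33. The lower call was a locus of Sphk1, sphingosine kinase 1, from 1.51 to 0.763 FPKM, at a name whose other locus went from 2.07 to 2.41 FPKM. Of the 8, Gbp2, Iigp1, Psmb8 and H2-D1 are shared with the interferon or MHC lists, Lcn2 with the neutrophil list, Cp with the acute-phase list and Osmr with the cytokine list. Tm4sf1 is the remaining member, from 0.823 to 1.39 FPKM at a locus beside another that went from 4.89 to 4.23 FPKM. Oligodendrocyte genes had 2 of 34 loci (5.88%) past the fold and a median of 0.04. Of 21 loci of the precursor list 1 was higher and 1 lower past the fold. Bmp4, a growth factor, went from 1.56 to 2.37 FPKM. The lower call was a locus of Lhfpl3, from 231 to 133 FPKM, while another locus of that name went from 23.8 to 28.0 FPKM.

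The list of dorsal horn peptides and their receptors had a few members past the fold. Of 46 loci 5 (10.9%, against 3.23% of all loci) were higher past the fold, 1 was lower and 30 were higher in all, with a median of 0.09. Pdyn, the precursor of the opioid dynorphin (chromosome 2, 129686542 to 129700009), went from 17.4 to 34.3 FPKM, a log2 change of 0.97. Tac2, the precursor of neurokinin B, had a pair of loci that went from 17.9 to 32.9 and from 64.7 to 82.4 FPKM. Crh, corticotropin-releasing hormone, went from 1.33 to 2.28 FPKM, and Gal, galanin, from 10.2 to 16.2 FPKM. Grp, gastrin-releasing peptide, which carries itch signals, went from 12.3 to 17.7 FPKM.

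Further peptides lay inside the fold, some higher and some lower. Penk, the enkephalin precursor, was the most abundant of those given here and went from 144 to 179 FPKM. Tac1, the substance P precursor, went from 34.5 to 45.0 FPKM, Sst, somatostatin, from 86.8 to 108 FPKM, and Calca, the precursor of calcitonin gene-related peptide, from 15.5 to 20.4 FPKM. Calcb, a paralog of Calca, went from 4.42 to 3.95 FPKM, Vip, vasoactive intestinal peptide, from 2.70 to 2.57 FPKM, Trh, thyrotropin-releasing hormone, from 4.04 to 3.93 FPKM and Nmu, neuromedin U, from 6.71 to 6.62 FPKM. Receptor genes are given by examples inside the fold. Oprm1, the mu opioid receptor, went from 2.93 to 2.58 FPKM, Tacr1, the substance P receptor, from 6.16 to 6.46 FPKM, and Grpr from 1.02 to 1.08 FPKM. Npb, neuropeptide B, which was not in the list and was picked after its values were seen, went from 2.90 to 1.39 FPKM.

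Immediate early genes mark recent neuronal activity. At 24 h 37 of their 46 loci were higher, against 51.3% of all loci. Of these, 2 (4.35% of the list, against 3.23% of all loci) were past the fold. Lower past the fold was 1 locus, and the median was 0.15. The lower call was a minor locus of Vgf, a secreted granin, from 1.76 to 1.04 FPKM, while its main locus went from 59.2 to 66.7 FPKM. Fosb went from 0.883 to 1.59 FPKM and reached the level filter only through the CFA group. Fos went from 9.49 to 10.05 FPKM, Arc from 9.81 to 10.4 FPKM and Egr1 from 14.9 to 15.3 FPKM, while Junb went from 7.83 to 10.2 FPKM. Egr2 went from 2.53 to 4.23 FPKM and is a Schwann cell gene as well.

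GABA and glycine genes leaned the other way without a locus past the fold. Of 35 loci 7 were higher, against 51.3% of all loci, and 28 were lower, with a median of -0.08. Gad2 went from 41.6 to 39.3 FPKM, and Slc12a5, the chloride exporter KCC2, from 144 to 146 FPKM. Glutamate genes had a median of 0.03, voltage-gated sodium and calcium channels -0.02, potassium channels -0.01, synaptic vesicle genes -0.03 and pan-neuronal genes 0.02. Past the fold in these 5 lists were Cacna1d, from 2.73 to 3.99 FPKM, Gria4, from 1.56 to 0.862 FPKM, Scn9a, from 1.47 to 0.857 FPKM, and Unc13c, from 4.10 to 2.39 FPKM. All 4 are loci of names that stand at several loci. P2rx2, an ATP-gated channel, went from 1.53 to 3.06 FPKM at a single locus and stands in none of these lists.

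Cholinergic and motor neuron genes had 15 of 19 loci higher, 1 of them past the fold, and a median of 0.31. Chat, which makes acetylcholine, went from 4.57 to 5.97 FPKM. Sensory ganglion genes had a median of 0.32 over 8 loci, none past the fold. The nociceptor genes P2rx3 and Trpv1 were below 1 FPKM, at 0.597 and 0.532 FPKM and at 0.0163 and 0.0837 FPKM. In the nerve injury list 3 of 27 loci (11.1%) were past the fold, 1 of them below 1 FPKM after saline. Ecel1, a protease of injured neurons, went from 3.66 to 7.92 FPKM at a minor locus and from 20.4 to 23.9 FPKM at its main locus.

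**Figure D4:**
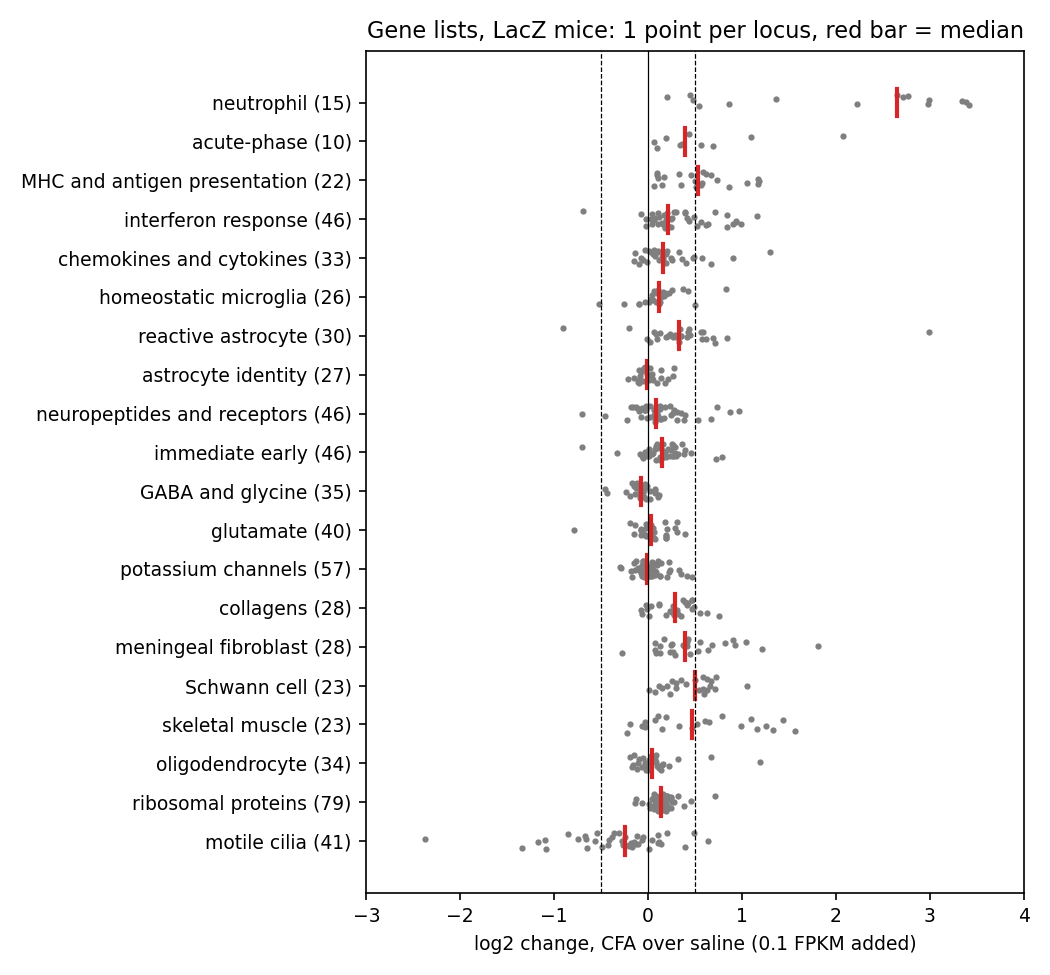
Log2 change after CFA (x axis, 0.1 FPKM added) of 20 gene lists in LacZ mice, 1 grey point per locus, the red bar at the median, dashed lines at 0.5 and -0.5, and the number of loci in brackets. The neutrophil median lies at 2.65, the MHC and Schwann cell medians near 0.5, the neuronal lists near 0 and motile cilia at -0.24.

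Genes of meningeal fibroblasts and the matrix were higher together. Leptomeningeal fibroblasts cover the cord, secrete collagen and carry retinoid and transport genes. Of 28 loci 27 were higher and 10 (35.7%, against 3.23% of all loci) were past the fold, with a median of 0.39 and a summed level that went from 870 to 1262 FPKM. Of the 10, 2 were below 1 FPKM after saline, Crabp2 among them. Crabp2, which carries retinoic acid inside the cell, went from 0.866 to 3.28 FPKM. Slc13a4, a sulfate transporter, went from 1.55 to 2.99 FPKM, and Mgp, which keeps tissue from calcifying, from 11.8 to 22.4 FPKM. The small proteoglycan genes Lum and Ogn went from 5.62 to 8.30 and from 31.2 to 45.0 FPKM.

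Collagens were higher at 24 of 28 loci with a median of 0.29, and 3 (10.7%) were past the fold. Col1a1, the main chain of fibrillar collagen, went from 12.3 to 19.04 FPKM and Col6a3 from 0.905 to 1.59 FPKM. Matrix glycoproteins had 7 of 37 loci (18.9%, against 3.23% of all loci) past the fold and a median of 0.23. Col6a3, and 1 of these 7, were below 1 FPKM after saline. Lox, which crosslinks collagen, went from 1.89 to 3.48 FPKM and Fbln2 from 1.42 to 2.12 FPKM. The growth factor binding protein genes Igfbp6 and Igfbp7 went from 9.04 to 17.0 and from 23.2 to 40.4 FPKM. Matrix proteases had no locus past the fold among 26.

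Peripheral nerve and muscle genes were also higher, although neither tissue belongs to the dorsal horn. Schwann cells make the myelin of nerve roots. All 23 Schwann cell loci were higher and 11 (47.8%, against 3.23% of all loci) were past the fold, with a median of 0.50, and the summed level went from 1353 to 1931 FPKM. Pmp22, a membrane protein of compact peripheral myelin, went from 241 to 364 FPKM, Drp2, which ties the outer Schwann cell membrane to periaxin, from 21.7 to 33.7 FPKM, and Art3 from 14.05 to 20.5 FPKM. Dhh, the hedgehog ligand of Schwann cells, went from 2.81 to 4.50 FPKM.

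Of 23 skeletal muscle loci 17 were higher and 11 (47.8%, against 3.23% of all loci) were past the fold, and the summed level was 165 and 199 FPKM. Of the 11, 2 were below 1 FPKM after saline, Myh4 among them. Myh4, a fast myosin heavy chain, went from 0.889 to 2.82 FPKM, Atp2a1, the calcium pump of fast muscle, from 1.06 to 3.04 FPKM, and Ckm, muscle creatine kinase, from 4.78 to 10.3 FPKM. The troponin genes Tnnc2 and Tnni2 went from 2.43 to 5.95 and from 1.92 to 4.98 FPKM. In the keratinocyte list 4 of 10 loci (40%, against 3.23% of all loci) were past the fold, and 2 of the 4 were below 1 FPKM after saline and entered only through the CFA group. Perp, a desmosome gene, went from 1.63 to 2.57 FPKM. The part of nerve root, muscle, meninges, blood and skin left on the dissected samples was not tested. The medians of these lists lay above 0, as did those of 40 of the 49 lists with members.

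The lowest median of all lists was that of motile cilia, which ependymal cells use to move cerebrospinal fluid along the central canal. Of 41 loci 31 were lower and 12 (29.3%, against 2.42% of all loci) were past the fold, with a median of -0.24. Of these 12, 6 were below 1 FPKM after CFA and reached the level filter only through the saline group. Their summed level went from 141 to 114 FPKM. Rsph1 and Rsph4a, which code for parts of the radial spokes of the axoneme, went from 3.69 to 2.16 and from 1.35 to 0.817 FPKM. Dynlrb2, a light chain of dynein, went from 2.37 to 1.26 FPKM and Tekt1, which runs along the microtubules, from 1.46 to 0.967 FPKM. Tmem212 went from 1.92 to 0.848 FPKM, Fam183b from 5.10 to 3.42 FPKM and Enkur from 1.68 to 1.02 FPKM.

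Most cilia loci below the level filter were lower as well. Below 1 FPKM 57 of 67 loci of the cilia list were lower, and at any level 88 of 108 were. The share of all loci at those levels that were lower is not given, so these counts are descriptions. Odf3b was the exception past the fold, from 2.60 to 4.10 FPKM, at a name with several loci. Of the 62 lower single-locus genes, 9 were in the cilia list. Other lower single-locus genes, picked after their values were seen, were Bicc1, which codes for an RNA-binding protein, from 7.13 to 4.15 FPKM, and Dpep2, a membrane dipeptidase gene, from 3.94 to 2.09 FPKM.

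Lists of general cell functions had medians near 0, apart from cytosolic ribosomal protein genes, which were slightly higher together. Of their 79 loci 76 were higher, against 51.3% of all loci, with a median of 0.14 and 1 locus past the fold. Oxidative phosphorylation genes had a median of 0.02 over 57 loci, heat shock genes -0.01 over 36 and circadian clock genes 0.06 over 22, with no locus past the fold. Oxidative and xenobiotic defence genes had 1 higher and 3 lower loci of 52 past the fold, and Gstm2, a glutathione transferase, went from 1.95 to 3.19 FPKM. Cholesterol synthesis genes had 11 of 34 loci higher, 1 lower past the fold and a median of -0.02. Hdac4 itself (chromosome 1, 91928777 to 92180314) was at 7.41 and 7.72 FPKM, and none of the 15 loci of a list of histone deacetylase genes and their MEF2 partners was past the fold.

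The extremes of the table were mostly loci that are hard to measure. Of the 30 loci with the largest positive log2 change 13 were single-locus genes, 11 spanned fewer than 500 bases and 10 had a name at several loci. Among the 13 were Adh7, an alcohol dehydrogenase, and Pydc3, a pyrin domain gene, both listed at 0 after saline and at 2.39 and 2.34 FPKM after CFA. Of the 20 loci with the largest negative change 2 were single-locus genes. They were Gm14137, from 1.80 to 0.437 FPKM, and Adam32, a sperm membrane protease gene, from 34.3 to 11.0 FPKM. Of the 10 loci above 50 FPKM that gained most in FPKM 6 spanned fewer than 100 bases, and of the 10 that lost most 9 did. Ptgds was among the former.

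The same CFA comparison under the other vectors used other mice and shared no sample with the LacZ groups. With HDAC4 wt, 203 of 9490 single-locus genes (2.14%) were higher and 83 (0.875%) lower past the fold. With HDAC4 3SA, 450 of 9491 (4.74%) were higher and 158 (1.66%) lower. Of the LacZ genes that were higher, 209 were read in the HDAC4 wt table, and 76.1% of them were above 0 there, against 51.8% of all single-locus genes. Past the fold in both were 52, which is 24.9% of the LacZ genes and 25.6% of the HDAC4 wt genes. Under HDAC4 3SA, 67.1% were above 0, and 76 were past the fold, which is 36.2% of the LacZ genes and 16.9% of the HDAC4 3SA genes. Of the 62 lower genes 46.8% were below 0 in the HDAC4 wt table and 29.0% in the HDAC4 3SA table, against 48.2% of all genes in each. Whether a gene's change differed between vectors could not be tested. LacZ and the HDAC4 constructs differ in promoter as well as in protein, and these cannot be told apart.

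Past the fold under all 3 vectors were 26 higher single-locus genes. They include the acute-phase gene Lrg1, the transcription factor gene Cebpd, the interferon genes Gbp2, Isg20, Slfn2 and Irf7, the matrix gene Mgp, the crosslinking enzyme gene Tgm2 and the transporter gene Slc38a5. Uts2, the peptide urotensin 2 of motor neurons, went from 1.71 to 3.68 FPKM with LacZ. Its saline and CFA levels were 4.33 and 11.8 FPKM under HDAC4 wt, and 3.95 and 15.3 FPKM under HDAC4 3SA. Lower under all 3 vectors were Gm14137, Gm37126 and Gm42744.

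For 36 of the 211 higher single-locus genes the change was below 0 under both other vectors. Of all single-locus genes 48.2% were below 0 in each of those tables. The share below 0 in both is not given, so the count of 36 shows no excess. The neutrophil genes Camp, Ltf, Ngp and Retnlg, several muscle genes and the Schwann cell genes Prx, Art3 and Egr2 were among them. The 4 neutrophil genes were below 1 FPKM after saline in LacZ mice and entered only through the LacZ CFA group, so their contrast with the other vectors is a description of genes selected for that difference. Saline and CFA levels of Camp were 2.51 and 0.846 FPKM under HDAC4 wt, and 3.67 and 1.80 FPKM under HDAC4 3SA. List medians were read over loci chosen on LacZ levels alone. For neutrophil genes this favours a high LacZ value, since 6 of the 15 loci entered only through the LacZ CFA group. The neutrophil median was 2.65 with LacZ, 0.03 with HDAC4 wt and -0.25 with HDAC4 3SA. The Schwann cell median was 0.50, -0.03 and -0.49 in that order, and the skeletal muscle median 0.47, -0.27 and -0.12. Motile cilia had medians of -0.24, -0.03 and 0.14.

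The MHC and interferon lists had medians above 0 in all 3 tables. The MHC median was 0.54 with LacZ, 0.32 with HDAC4 wt and 0.65 with HDAC4 3SA, and the interferon median 0.21, 0.36 and 0.81. The levels they began from differed. Summed over the MHC list, the saline group stood at 259 FPKM with LacZ, 1853 FPKM with HDAC4 wt and 1204 FPKM with HDAC4 3SA. Cd74, which stands in the list of activated microglia genes and is not part of those sums, was at 17.8, 397 and 204 FPKM after saline. Those levels come from tables with separate normalization. Pdyn, with a log2 change of 0.97 under LacZ, had saline and CFA levels of 29.3 and 35.6 FPKM under HDAC4 wt, and of 21.0 and 18.7 FPKM under HDAC4 3SA.

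**Figure D5:**
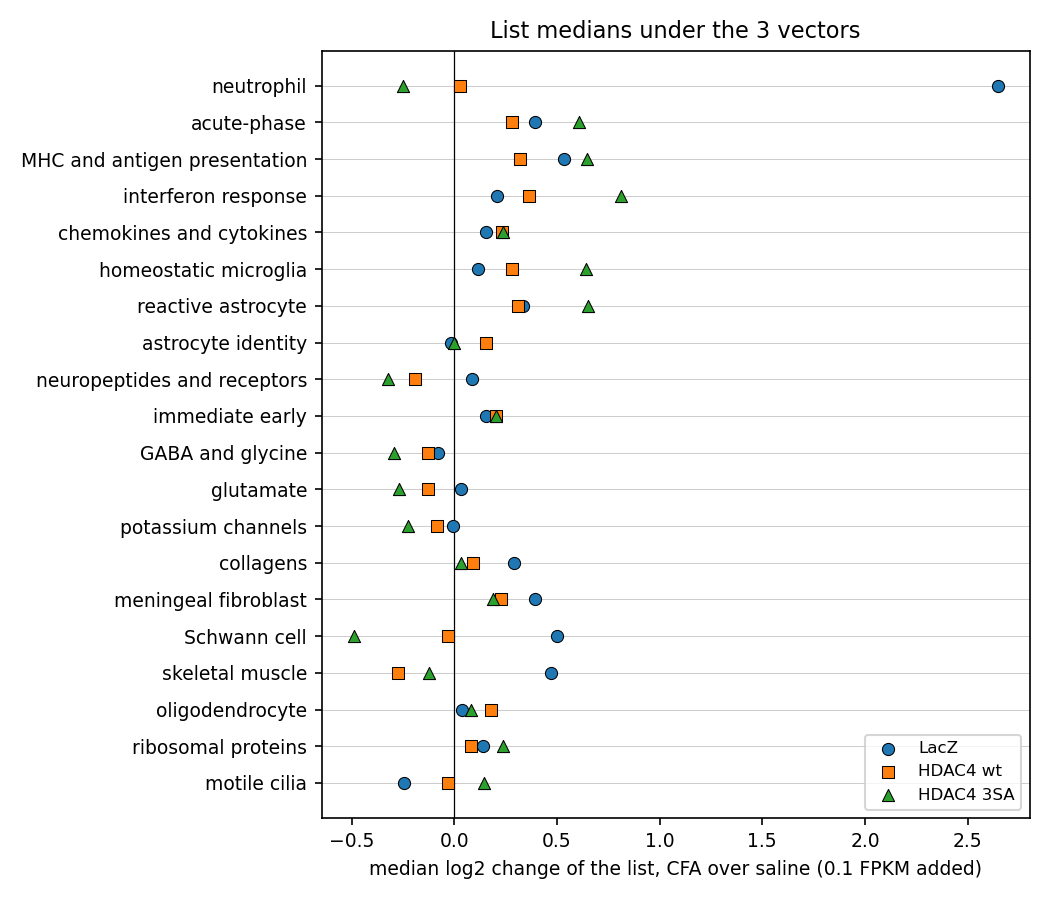
Median log2 change after CFA (x axis, 0.1 FPKM added) of gene lists under LacZ, HDAC4 wt and HDAC4 3SA, 1 point per vector. The neutrophil, Schwann cell and muscle points lie apart, with LacZ above 0.4 and the others at or below 0.03, while MHC and interferon points are above 0 under all 3 vectors.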

How the data were processed

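Poly-A RNA of dorsal spinal cord was sequenced from 3 mice per group. Per the labels, the authors used Bowtie, TopHat, Cufflinks and Cuffdiff on mm10 (GRCm38). The deposited FPKM values are Cuffdiff estimates, 1 per group over its mice, in 1 table per vector. Fold changes, test statistics, p-values and q-values of the authors' own comparisons stand in the same tables and were not used. Read counts, depth and values per mouse were not analysed here, so no test of the differences was made.

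Log2 changes were computed with 0.1 FPKM added, for loci with 1 gene name and a mean of at least 1 FPKM. Code was tested on simulated data. Gene lists hold 1577 genes, of which 1446 were in the table and 1118 among the loci kept. The list of mitochondrially encoded genes had no locus. The list for sex-linked genes had 4 loci and no call. Named were the 30 largest and 20 smallest log2 changes (as counts with examples), the 10 largest differences in FPKM each way above 50 FPKM, and list members past the fold. Members and lists were chosen with earlier results of these data known. Loci are GRCm38 coordinates counted from 1, annotated with GENCODE M21. Python 3.11.15, numpy 2.4.6 and pandas 2.3.3 were used. Alternatives changed the FPKM added, the minimum level, the loci counted and the centring. Single-locus genes of at least 500 bases were chosen after seeing the data. Single results of some list genes are not reported here.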

Additional observations from a re-analysis of the deposited data

How the results depend on the processing

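With 1 value per group no replicate could be left out. No paired analysis was possible because the tables hold no values per mouse. The 511 higher loci past the fold became 317 with 1 FPKM added, 789 with a minimum of 0.5 FPKM, 183 with a minimum of 5 FPKM, 1776 with no minimum, 284 without names at several loci and 211 for single-locus genes of at least 500 bases. The 382 lower loci became 614, 147 and 1470 under those 3 minimums, 254 without loci under 500 bases, 157 without names at several loci and 62 for single-locus genes. Beyond a log2 change of 1 the 122 higher loci became 72 with 1 FPKM added, 190, 43 and 462 under the minimums, 62 without names at several loci and 40 for single-locus genes. The 110 lower loci became 54 with 1 FPKM added, 170, 44 and 371 under the minimums, 71 without loci under 500 bases, 48 without names at several loci and 16 for single-locus genes. A lower minimum admits more loci by construction. Of 490 recomputed list medians 4 moved. The neutrophil median was 1.33 with 1 FPKM added, 3.34 with a minimum of 5 FPKM and 1.82 with no minimum, and the keratinocyte median was 3.62 with a minimum of 5 FPKM. Of 555 values of named loci 47 moved by more than 1.5 times, 36 of them with 1 FPKM added and 11 with 0.01 FPKM added, and none reversed. The value used for centring was 0.0042. The depth of each library is not in the tables and only a minimum is stated. From the levels alone it cannot be said which small differences lie within counting error, and the authors' test values were not used.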

Other observations

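Rbp4 and Aldh1a2 were picked after their values were seen. Rbp4, which carries retinol, went from 5.68 to 11.2 FPKM. Aldh1a2, which makes retinoic acid, went from 6.29 to 8.49 FPKM, inside the fold. Its saline and CFA levels were 11.1 and 8.88 FPKM under HDAC4 wt, and 6.99 and 5.77 FPKM under HDAC4 3SA.

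Sox21, a transcription factor gene of neural progenitors, went from 46.0 to 82.9 FPKM in LacZ mice. Its saline and CFA levels were 39.2 and 53.5 FPKM under HDAC4 wt, and 34.8 and 39.0 FPKM under HDAC4 3SA. Ppbp, the platelet chemokine precursor, went from 0.766 to 2.83 FPKM in LacZ mice.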
